A study of Mus musculus with 8 samples.

Results

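Fatty acid elongases and desaturases were followed in liver RNA of *Apoe*-/- mice given isoginkgetin (ISOGK) or vehicle. The 10 genes *Elovl1*, *Elovl2*, *Elovl3*, *Elovl5*, *Elovl6*, *Fads1*, *Fads2*, *Fads3*, *Scd1* and *Scd2* were taken by symbol from a table of raw counts for 16540 symbols, and all 10 were among the 12307 genes with enough reads to be tested. The labels give 4 liver samples of vehicle-treated and 4 of ISOGK-treated mice, all *Apoe*-/- and, by the title of the series, male. All mice ate a Western diet, and the treated group received intraperitoneal ISOGK for 8 weeks, with a daily dose of 20 mg/kg. Count columns headed DMSO hold the vehicle libraries, because DMSO is the control injection in the study's scheme. Both groups lack apolipoprotein E, a ligand for lipoprotein uptake, so no mouse with intact *Apoe* was compared. The age of the mice is not given in the sources used here. Beyond separate sample titles, nothing in the labels says that each library came from its own mouse, and p-values measure the spread between these libraries.

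Fatty acid synthase releases palmitate. ELOVL enzymes then condense an acyl-CoA with malonyl-CoA in the endoplasmic reticulum, the step that begins each round of chain lengthening, and desaturases insert double bonds with electrons passed on by cytochrome b5. ELOVL1, ELOVL3 and ELOVL6 lengthen saturated and monounsaturated chains, and SCD1 and SCD2 turn stearate and palmitate into oleate and palmitoleate. ELOVL2, ELOVL5, FADS1 and FADS2 convert the essential fatty acids of the diet into arachidonic and docosahexaenoic acid. In liver, several of these genes are known targets of the lipogenic factor SREBP-1c and of the fatty acid receptor PPAR alpha. ISOGK, a biflavonoid found in *Ginkgo biloba*, was studied as an inhibitor of ATP citrate lyase (ACLY), which supplies the acetyl-CoA from which malonyl-CoA is made.

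Promoter sequence is shown for *Elovl6* and *Elovl5*, whose mean levels differed most in each direction among the elongases with sequence at hand. *Elovl1* also had a lower mean with ISOGK, and *Elovl2* and *Elovl3* had higher means. RefSeq sequence (GRCm38.p6) was at hand for 6 of the 10 genes, and *Elovl3*, *Fads1*, *Scd1* and *Scd2* had no entry. Each window runs 5′ to 3′ on the plus strand and stops at the base before the annotated start of the gene, with chr3:129532136-129532354 for *Elovl6* and chr9:77917115-77917363 for *Elovl5*. Capitals mark CACGTG (E-box) and CCAAT or its reverse complement ATTGG (NF-Y).
Elovl6 promoter: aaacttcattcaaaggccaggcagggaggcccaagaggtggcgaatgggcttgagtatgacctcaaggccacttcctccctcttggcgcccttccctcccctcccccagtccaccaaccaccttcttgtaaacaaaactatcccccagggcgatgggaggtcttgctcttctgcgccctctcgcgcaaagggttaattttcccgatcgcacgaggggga
Elovl5 promoter: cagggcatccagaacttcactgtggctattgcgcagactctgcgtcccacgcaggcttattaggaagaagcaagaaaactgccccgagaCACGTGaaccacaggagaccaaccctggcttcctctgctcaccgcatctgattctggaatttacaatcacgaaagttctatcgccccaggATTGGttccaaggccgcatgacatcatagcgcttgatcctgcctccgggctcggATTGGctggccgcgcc
The *Elovl5* window held CACGTG with its first base 161 bases before the RefSeq start and ATTGG at 71 and 17 bases before it, whereas the *Elovl6* window held neither motif. In all, 7 letter patterns were searched on both strands in the 250 bases before each start, and the share of 32851 such mouse windows holding each is given as background. CACGTG was in 6.02% of windows, CCAAT in 33.8%, GGGCGG (GC box) in 32.7%, AGGTCA (nuclear receptor half-site) in 14% and TCACNCCAC (sterol regulatory element) in 1.05%. Direct repeats of AGGTCA with 1 base between them (DR1) or 4 bases (DR4), which each contain AGGTCA, were in 0.0335% and 0.0152%. No window of the 6 genes held TCACNCCAC or either repeat. AGGTCA was in the *Elovl6* window, not capitalised above, and in a second start window of *Elovl1*. In *Elovl6* it began 193 bases before the RefSeq start, which lies past the end of the sequence printed above. GGGCGG was in windows of *Elovl1*, *Elovl2*, *Fads2* and *Fads3*, and CCAAT was also in those of *Elovl1* and *Fads3*. Only 7 bases of the *Fads2* window and 0 of the second *Elovl1* window lie before the annotated start of the gene. The matches in these windows therefore fall inside the annotated genes. These matches describe letters only.

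Libraries held 17457106 to 24461854 counts. Hepatocyte markers summed to 152604 to 164723 CPM (counts scaled to library size with TMM factors) in vehicle and 140000 to 175805 in ISOGK, in the same range in both groups. Summed levels of 11 macrophage and Kupffer cell markers were 1350 to 1642 CPM in vehicle and 1008 to 1289 in ISOGK, without overlap. Of these 11, *Gpnmb* and *Cd68* fell, 10 had the lower mean in ISOGK and none was at 0 throughout. In bulk liver, fewer cells of a type and less RNA per cell cannot be told apart, and the part of these cells in the results was not tested. Summed stellate (105 to 162 against 67.2 to 151), endothelial (283 to 320 against 276 to 318), cholangiocyte (27.6 to 34.8 against 28.3 to 69.1), lymphocyte (1.43 to 3.93 against 2.09 to 4.75) and adipocyte markers (1.07 to 1.81 against 1.07 to 2.30) overlapped between vehicle and ISOGK, with the cholangiocyte marker *Sox9* called higher. Skeletal muscle markers summed to 80.4 CPM in vehicle 4 and to at most 0.628 in every other library, so values without vehicle 4 are given for the genes called. ISOGK 4 stood apart over all genes, with a chi-square per gene of 85.9 to 99.8 against the other ISOGK libraries, where those differed from each other by 33.1 to 67.1 and vehicle libraries by 18.1 to 33.6. Its TMM factor of 0.883 was also the lowest of the 8, and values without it are given as well.

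The elongases and desaturases did not move as one group. *Elovl6*, which makes stearate from palmitate, and *Scd2*, a stearoyl-CoA desaturase, were 1.84-fold and 1.46-fold lower with ISOGK and passed the test. *Elovl3* and *Elovl5* had means 1.98-fold and 1.83-fold higher that missed it narrowly. The other 6 genes did not pass. The test was edgeR's quasi-likelihood test with Benjamini-Hochberg adjustment over all 12307 genes at 0.05. None of the 10 genes passed as higher, where 4.11% of all tested genes did, and 2 of 10 passed as lower, where 3.44% did. None of the 10 also exceeded an absolute log2 fold change of 1, against 1.63% of all genes. Levels of 2 genes, *Elovl5* (higher) and *Scd2* (lower), did not overlap between groups, and 15.3% of all genes did not overlap. The median log2 fold change of the 10 genes was -0.10, with 4 above and 6 below 0, beside 0.00 for all tested genes. With library size in place of TMM scaling, the median of all genes moved to -0.13 and the calls over all genes went from 506 higher and 423 lower to 262 higher and 804 lower, while the members called stayed at 2.

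**Figure D1:**
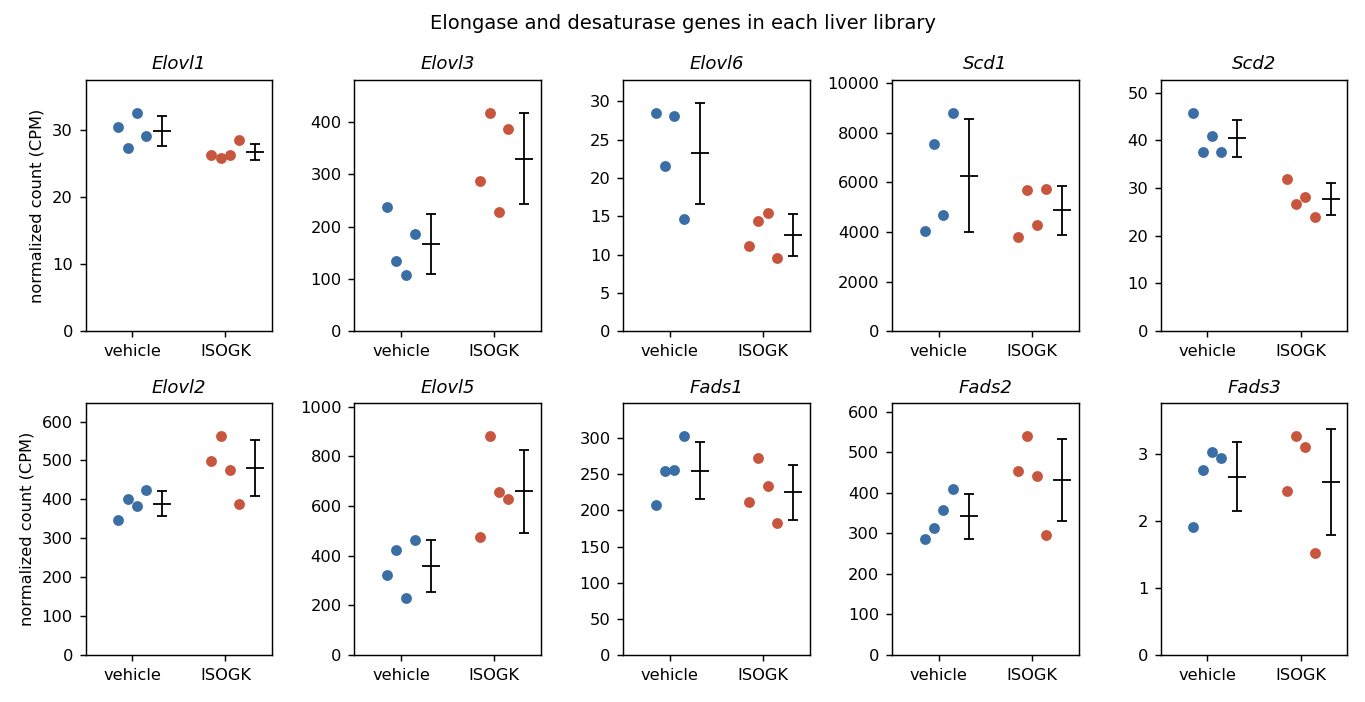
Level of each of the 10 genes in every library (CPM with TMM factors, linear axes from 0), with libraries as points and the mean and SD of each group as a bar. *Scd2* lies lower in all ISOGK libraries than in any vehicle library, *Elovl5* lies higher in all of them, and the groups of the other 8 genes overlap.

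*Elovl6* (GRCm38, chr3:129532355-129638495, plus strand) measured 28.6, 21.5, 28.2 and 14.7 CPM in vehicle 1 to 4. In ISOGK 1 to 4 it measured 11.1, 14.4, 15.4 and 9.54 CPM. The groups overlapped only through vehicle 4, the lowest vehicle library and the one with muscle transcripts. Mean levels were 23.2 ± 6.56 CPM in vehicle and 12.6 ± 2.74 CPM in ISOGK (SD, n = 4 each), so that *Elovl6* fell with a log2 fold change of -0.88 ± 0.22 (SE) with an adjusted p of 0.0393. Without vehicle 4 the log2 fold change was -1.05 (adjusted p = 0.00945), and without ISOGK 4 it was -0.77 (adjusted p = 0.0917). The call was lost when vehicle 1, 2 or 3 or ISOGK 1, 2 or 4 was left out, with adjusted p from 0.0743 to 0.101 and log2 fold changes from -0.95 to -0.77. Of 50-base windows of its exons, 3.98% also occur in other genes, mostly *Gm11295*, and 34 exon bases lie opposite the antisense gene *Gm35986*.

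*Scd2* (chr19:44293674-44306864, plus strand) measured 45.8, 37.6, 40.8 and 37.5 CPM in vehicle 1 to 4. It measured 31.9, 26.7, 28.0 and 24.0 CPM in ISOGK 1 to 4. Every ISOGK library lay below every vehicle library. Mean levels were 40.4 ± 3.92 CPM in vehicle and 27.7 ± 3.30 CPM in ISOGK, and *Scd2* fell with a log2 fold change of -0.55 ± 0.11 (95% confidence interval -0.78 to -0.31) with an adjusted p of 0.0116, from 458 to 1049 counts per library. Without vehicle 4 it was -0.58 (adjusted p = 0.0240) and without ISOGK 4 it was -0.48 (adjusted p = 0.0250). It passed under all 17 alternative settings run, with log2 fold changes from -0.67 to -0.48. Of its 50-base exon windows, 3.97% occur in other genes, including 2.66% in *Scd1*.

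*Scd1* (chr19:44394455-44407879, minus strand), the main stearoyl-CoA desaturase of liver, measured 4034, 7559, 4674 and 8811 CPM in vehicle 1 to 4. In ISOGK 1 to 4 it measured 3783, 5686, 4298 and 5718 CPM. Both groups had a pair of lower and a pair of higher libraries, and the ranges overlapped. Its means were 6269 ± 2285 and 4871 ± 982 CPM, with a log2 fold change of -0.36 whose 95% confidence interval ran from -0.93 to 0.20 (adjusted p = 0.423). Without vehicle 4, the highest library, the log2 fold change was -0.15. *Scd1* made up 0.656% of all counts in vehicle and 0.463% in ISOGK. Of its 50-base exon windows, 4.56% occur in other genes, including 2.97% in *Scd2*.

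*Elovl3* (chr19:46131897-46135694, plus strand), which makes very long saturated and monounsaturated chains, measured 238, 134, 108 and 186 CPM in vehicle 1 to 4. It measured 288, 418, 228 and 386 CPM in ISOGK 1 to 4. The groups overlapped by vehicle 1 and ISOGK 3 alone. Means were 166 ± 57.5 and 330.0 ± 87.7 CPM, with a log2 fold change of 0.99 ± 0.27 (95% confidence interval 0.37 to 1.60) and an adjusted p of 0.0635. It passed in 6 of 17 alternative settings, among them DESeq2 (adjusted p = 0.00143) and limma-voom (adjusted p = 0.0347). Without ISOGK 4 its log2 fold change was 0.90 (adjusted p = 0.162). *Elovl1*, which makes still longer saturated chains in most tissues, had means of 29.8 ± 2.25 and 26.7 ± 1.16 CPM with a log2 fold change of -0.16 (95% confidence interval -0.35 to 0.04, adjusted p = 0.306).

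*Elovl5* (chr9:77917364-77984519, plus strand), which lengthens polyunsaturated chains of intermediate length, measured 323, 424, 230 and 462 CPM in vehicle 1 to 4. It measured 474, 880, 655 and 626 CPM in ISOGK 1 to 4. Each ISOGK library exceeded each vehicle library, the closest being ISOGK 1 and vehicle 4. Means were 360 ± 105 and 659 ± 168 CPM, with a log2 fold change of 0.87 ± 0.24 (95% confidence interval 0.34 to 1.41) and an adjusted p of 0.0570. It passed in 5 of 17 alternative settings, with an adjusted p of 0.00244 by DESeq2 and 0.0396 by limma-voom. Without ISOGK 4 its log2 fold change was 0.90 (adjusted p = 0.124).

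*Elovl2* (chr13:41182381-41220405, minus strand), which carries the chain on toward docosahexaenoic acid, measured 347, 401, 383 and 423 CPM in vehicle 1 to 4. It measured 498, 562, 476 and 387 CPM in ISOGK 1 to 4. Only ISOGK 4 lay within the vehicle range. The log2 fold change was 0.31 (95% confidence interval 0.05 to 0.57, adjusted p = 0.140), and it passed only without ISOGK 4 (0.40, adjusted p = 0.0439).

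The desaturases FADS1 and FADS2 introduce double bonds near the carboxyl end of polyunsaturated chains, and their genes lie side by side with *Fads3* on chromosome 19. *Fads2* (chr19:10062765-10101746, minus strand) measured 286, 314, 358 and 410 CPM in vehicle 1 to 4 and 454, 540, 441 and 296 CPM in ISOGK 1 to 4. *Fads1* (chr19:10182888-10196877, plus strand) measured 207, 255, 255 and 303 CPM in vehicle and 211, 273, 233 and 182 CPM in ISOGK. ISOGK 4 was the lowest library of its group for both genes. Neither passed, with log2 fold changes of 0.34 for *Fads2* (95% confidence interval -0.04 to 0.72, adjusted p = 0.251) and -0.18 for *Fads1* (-0.49 to 0.12, adjusted p = 0.466). Without ISOGK 4 the log2 fold changes were 0.48 for *Fads2* (adjusted p = 0.0540) and -0.09 for *Fads1* (adjusted p = 0.740). *Fads3*, a related desaturase, at 29 to 78 counts per library, had a log2 fold change of -0.05 (95% confidence interval -0.60 to 0.50, adjusted p = 0.928).

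**Figure D2:**
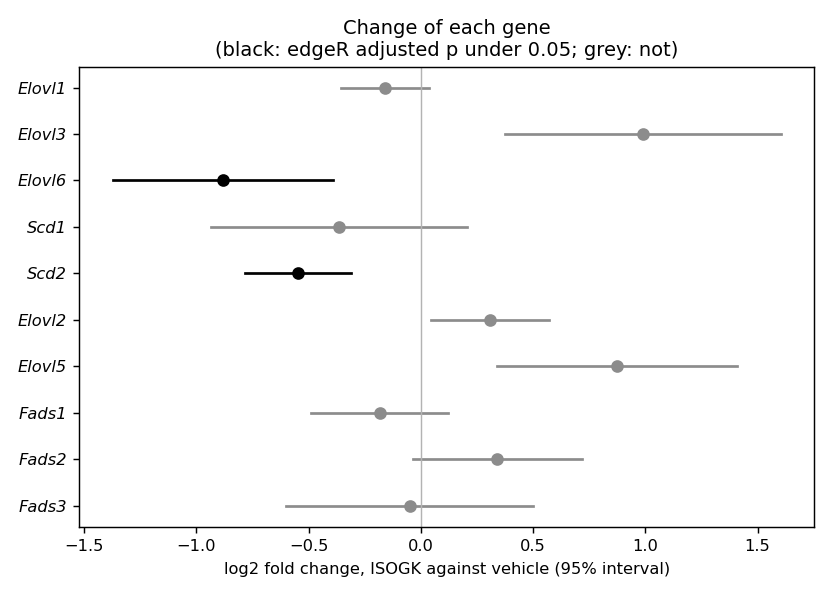
Log2 fold change of each gene, ISOGK against vehicle, with its 95% confidence interval from edgeR, in black where the adjusted p is under 0.05 and in grey elsewhere. The intervals of *Elovl6* and *Scd2* lie below 0 and those of *Elovl2*, *Elovl3* and *Elovl5* above it, and only *Elovl6* and *Scd2* pass after adjustment over all genes.

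Ratios between members within a library do not depend on scaling between libraries. The 6 ratios were compared with two-sided exact permutation tests, in which 4 against 4 cannot give a p under 0.0286. The ratio of *Fads2* to *Fads1* was 1.38, 1.23, 1.40 and 1.35 in vehicle 1 to 4 and 2.15, 1.98, 1.89 and 1.62 in ISOGK 1 to 4. No ISOGK value reached down to the vehicle values, although each gene alone overlapped. The mean log2 ratio went from 0.42 ± 0.085 to 0.93 ± 0.170, a difference of 0.51 (exact permutation p = 0.0286, adjusted p = 0.0571 over the 6 ratios). The log2 ratio of *Elovl6* to *Elovl5* went from -3.95 ± 0.861 to -5.69 ± 0.333, and that of *Elovl3* to *Elovl1* from 2.41 ± 0.534 to 3.58 ± 0.390, both without overlap and with the same exact permutation p and adjusted p. The other 3 ratios overlapped between groups, with differences of -0.59 for *Elovl2* to *Elovl5* (adjusted exact permutation p = 0.129), -0.54 for *Elovl6* to *Scd1* (0.446) and -0.24 for *Scd2* to *Scd1* (0.514). None of the 6 passed 0.05 after adjustment. The 3 without overlap already had the smallest p that this permutation test can give. Whether they passed after adjustment therefore depended on the other ratios, and their not passing decides nothing about them.

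**Figure D3:**
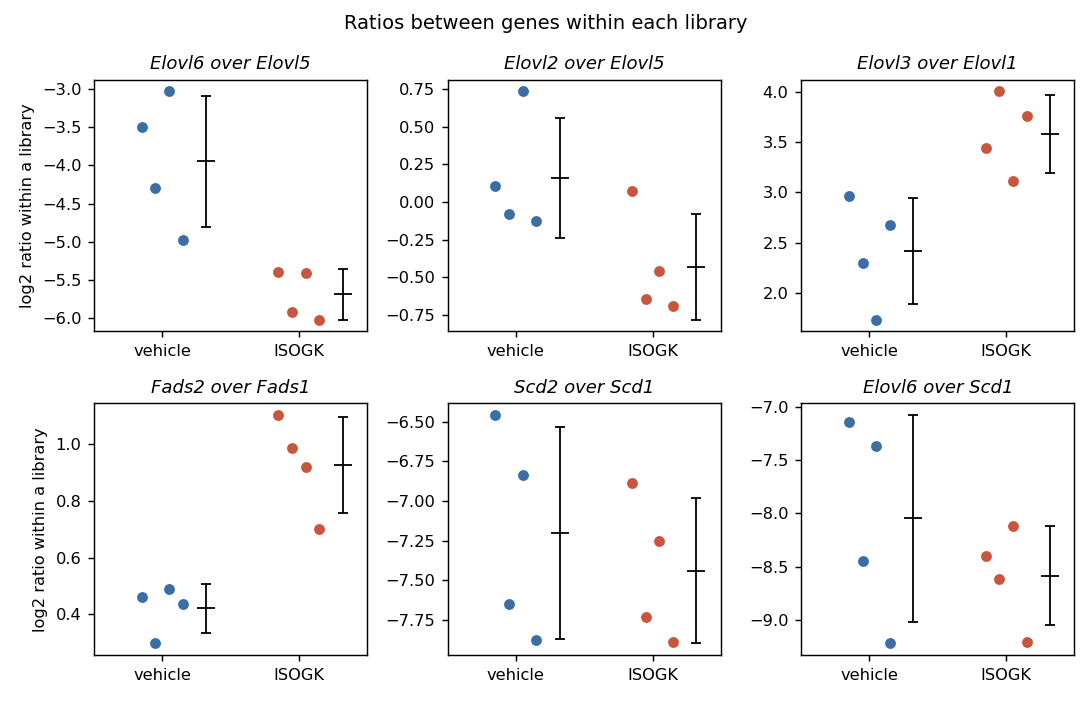
Log2 ratio of the 6 pairs of genes within each library, with the mean and SD of each group as a bar. Vehicle and ISOGK points are apart for *Elovl6* over *Elovl5*, *Elovl3* over *Elovl1* and *Fads2* over *Fads1*, and overlap for the other 3.

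Levels were compared between genes as CPM per kilobase of annotated exon. In vehicle the order of levels was *Scd1* (1282 ± 467), *Fads2* (104 ± 16.5), *Elovl5* (102 ± 29.7), *Elovl2* (98.0 ± 8.13), *Elovl3* (84.2 ± 29.1), *Fads1* (53.0 ± 8.08), *Elovl1* (10.9 ± 0.826), *Scd2* (7.40 ± 0.717), *Elovl6* (3.61 ± 1.02) and *Fads3* (0.703 ± 0.137). Each neighbour from *Fads2* to *Fads1* overlapped the next. In ISOGK the levels per kilobase of *Elovl5* (187 ± 47.6) and *Elovl3* (167 ± 44.4) stood next after *Scd1* (996 ± 201), followed by *Fads2* (131 ± 30.7) and *Elovl2* (121 ± 18.3), and these 4 overlapped as neighbours. *Fads1* (46.7 ± 7.92) did not overlap with *Elovl2*, the gene above it in ISOGK, and did not overlap with *Elovl2* in vehicle either. *Elovl1*, *Scd2*, *Elovl6* and *Fads3* kept their order.

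Of 45 pairs of members, 7 had correlated deviations within groups at an unadjusted 0.05 and 0 after adjustment. The pairs described were chosen after their values were seen. After subtracting group means from log2 CPM over the 8 libraries, *Elovl2* and *Fads2* had an r of 0.94 (rho 0.905, exact permutation p = 0.00521 for r and 0.0156 for rho), and 0.809 without ISOGK 2 and ISOGK 4. *Fads1* and *Fads2* had an r of 0.909 (rho 0.833, exact permutation p = 0.0122 for r), and 0.806 without ISOGK 4 and vehicle 1. *Scd1* and *Scd2* ran in opposite directions, with an r of -0.848 (rho -0.810, exact permutation p = 0.00174, the smallest these 576 pairings can give), and -0.812 without vehicle 1 and 4. The adjusted p of r for these 3 pairs was 0.0911, 0.0911 and 0.0781, from the same exact permutation tests. As 0.0781 belongs to the smallest possible p, no pair could have passed on its own. That 0 pairs passed is therefore no sign that the deviations were unrelated. ISOGK 2 was highest and ISOGK 4 lowest of their group for *Elovl2*, *Fads1*, *Fads2* and *Fads3* alike, and all pairs share the same 8 libraries.

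**Figure D4:**
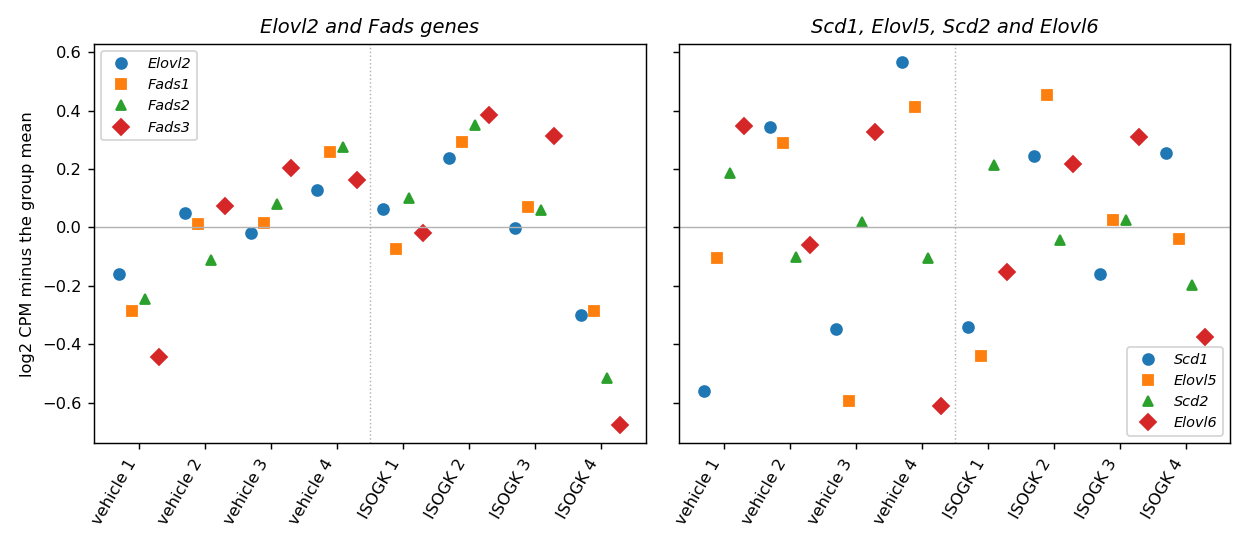
Deviation of log2 CPM from the mean of its group in the 8 libraries, for *Elovl2* and the *Fads* genes on the left and *Scd1*, *Elovl5*, *Scd2* and *Elovl6* on the right. ISOGK 4 lies lowest and ISOGK 2 highest of the ISOGK libraries for *Elovl2*, *Fads1*, *Fads2* and *Fads3*.

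Of 6 tested enzymes that complete the elongation cycle, 2 rose, 1 fell and 3 did not pass. *Hacd3*, an acyl-CoA dehydratase, rose from 122 ± 11.0 to 216 ± 17.6 CPM (log2 fold change 0.82, adjusted p = 0.00105 by edgeR), *Hacd1* rose by 0.79 and *Hacd4* fell by 0.58 on the log2 scale. The reductases *Hsd17b12* (-0.04) and *Tecr* (-0.06) did not pass, and the list's median was 0.06. Of 5 tested genes of cytochrome b5 and its reductases, only *Cyb5b*, the outer mitochondrial membrane form of cytochrome b5, passed. It fell from 263 ± 23.2 to 159 ± 11.7 CPM (log2 fold change -0.73, adjusted p = 0.00178 by edgeR). *Cyb5a* (0.13) and *Cyb5r3* (-0.34, adjusted p = 0.0760 by edgeR) did not pass, and the list's median was -0.12. Whether *Cyb5b* serves the desaturases was not tested. Neither of 2 other tested members of the families, *Fads6* and *Degs1*, passed (median -0.05).

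Of 9 genes for malonyl-CoA and palmitate supply, 4 fell and 5 did not pass (median -0.60). *Thrsp*, a lipogenic cofactor, fell by 1.79, *Fasn*, fatty acid synthase, by 1.06, *Acaca*, acetyl-CoA carboxylase, by 0.75 and *Acly* by 0.60 on the log2 scale. Of 7 acyl-CoA synthetase genes, 3 rose and none fell (median 0.17), led by *Acsl1* at a log2 fold change of 0.94, with *Slc27a4* at 0.46 and *Slc27a2* at 0.44. Of 8 genes for acyl chain handling, *Agpat3* alone rose, by 0.40, and *Mboat7* (-0.26) and *Lpcat3* (0.30) did not pass (median 0.24). Peroxisomal retroconversion is the chain shortening that finishes docosahexaenoic acid. Of 13 genes listed for it, 8 rose and *Pecr*, a reductase and not a shortening enzyme, fell by 0.36 (median 0.54). *Ehhadh*, a peroxisomal bifunctional enzyme, rose by 2.57 and *Abcd3* by 0.77. *Hsd17b4*, the other peroxisomal bifunctional enzyme, rose by 0.47 (adjusted p = 0.00927 by edgeR).

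Among 13 regulators, 1 rose and 3 fell (median 0.05). *Srebf1*, which encodes SREBP-1, fell from 68.9 ± 15.3 to 22.7 ± 7.70 CPM (log2 fold change -1.60, adjusted p = 0.00592 by edgeR), *Mlxipl*, which encodes the carbohydrate sensor ChREBP, fell by 1.12 and *Insig1* by 0.65 on the log2 scale. *Insig2* rose by 1.48 on the same scale, the opposite direction to *Insig1*. *Srebf2* (0.19), *Nr1h3* (-0.08) and *Ppara* (0.06) did not pass.

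**Figure D5:**
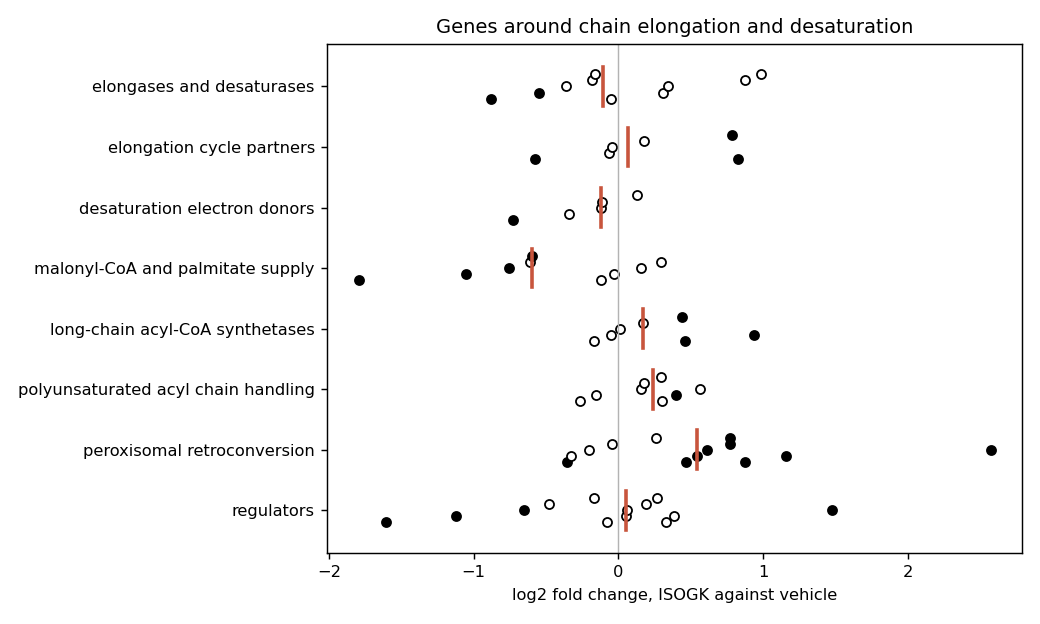
Log2 fold change of each tested gene among the 10 members and in 7 pathway lists, filled where the adjusted p is under 0.05 and open elsewhere, with a coloured line at each median. The median of malonyl-CoA and palmitate supply lies at -0.60 and that of peroxisomal retroconversion at 0.54.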

How the data were processed

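RNA sequencing covered 4 liver samples labelled vehicle and 4 labelled ISOGK. The authors aligned reads with HISAT2 and obtained raw gene counts with StringTie, and mm10 is named as the build in the submitters' processing notes. The annotation release and use of strand are not given in the sources used here. The deposited whole-number counts carry no normalization, and without molecular identifiers their precision covers counting error only.

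Genes were filtered with filterByExpr (minimum count 10, minimum total 15), scaled with TMM and tested with the robust quasi-likelihood test of edgeR 4.0.16 in R 4.3.3 (limma 3.58.1, DESeq2 1.42.0 for alternatives), with Benjamini-Hochberg adjustment over 12307 genes. The tests were checked on simulated counts. Log2 CPM used a prior count of 2. Standard errors were derived from the F statistic. Ratios were tested by exact permutation in R, and correlations by exact permutation in Python 3.11.15. Positions and exon lengths came from the GENCODE annotation of GRCm38.

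Members and lists were chosen with earlier results of these data known. Named were all members, up to 3 genes per list with the smallest adjusted p, *Srebf1*, *Srebf2*, *Mlxipl*, *Nr1h3* and *Ppara*, and the 3 genes most like each called member. Other names (*Acaca*, *Hsd17b12*, *Tecr*, *Cyb5a*, *Acaa1b*) were added after values were seen, and 1 gene that the rule names is not reported here.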

Additional observations from a re-analysis of the deposited data

How the results depend on the processing

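Of the 10 genes, 2 passed as reported, and 4 passed with DESeq2, with limma-voom, without the robust option of edgeR and with the replicate block, the additional genes being *Elovl3* and *Elovl5*. Leaving out 1 library at a time gave 1 to 3 genes, with 1 without vehicle 2, vehicle 3 or ISOGK 2. Over all genes, calls numbered 929, 1435 with DESeq2, and 379 to 1235 with 1 library left out, and those also past the fold threshold numbered 200 and 123 to 250. With the replicate block, 827 genes passed. Same-numbered libraries had deviation correlations from -0.0144 to 0.0849, and 2 of 8 libraries correlated best with their own number, so the numbers were not taken to pair the libraries. No direction reversed among called genes. *Fads3*, not called, changed sign without vehicle 3 (0.02) and without ISOGK 4 (0.13). The 3 ratios that did not overlap kept their direction throughout. With same-numbered pairs the smallest possible exact p is 0.125, and with 3 against 4 it is 0.0571, so those settings cannot pass. The cause of these shifts was not tested. Correlations with permutation p were chosen after seeing the data.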

Other observations

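Of 17 tested PPAR alpha targets, 15 rose and none fell (median log2 fold change 1.29), with *Ehhadh* at 2.57, *Cyp4a14* at 2.12 and *Cyp4a10* at 2.02. The list shares genes with peroxisomal retroconversion, among them *Ehhadh* and *Acaa1b*. Of 18 clock genes, *Bhlhe40* fell by 1.47 and *Hlf* by 0.51 on the log2 scale, and the other 16, including *Npas2* (1.63, adjusted p = 0.0537 by edgeR), did not pass. Of 10 male-biased liver genes, *Cyp2d9* rose by 0.53, and *Mup20* (0.61) and *Hsd3b5* (-2.04) did not pass. Beside these lists, 4.11% of all tested genes passed as higher and 3.44% as lower.

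The genes whose log2 CPM varied most like *Elovl6* over the 8 libraries, after subtracting group means, were *Kcnj2* (r = 0.980), *Bend4* (0.977) and *Zfp74* (0.951). Those most like *Scd2* were *Zfp87* (0.982), *Sult2a8* (0.976) and *Pla2g15* (0.976). These values are the highest of 12307 tested genes once predicted genes and Rik clones are left out, and are a description. In 32 groups of 4 values, made up of the members' levels and their ratios alone, no library passed Dixon's criterion, which is separate from the difference of ISOGK 4 over all genes.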
